A study of Homo sapiens with 2 samples.

Results

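The genes described here encode the desmosome, the spot-like junction that rivets the keratin filaments of neighbouring epithelial cells together. They were the 10 genes DSG2, DSG3, DSC2, DSC3, JUP, PKP1, PKP2, PKP3, DSP and PERP, chosen by symbol among the 19775 genes that the platform annotation pairs with a probe set of their own. A probe set is the group of short probes on the array that reports 1 transcript region, and the 10 genes had 24 of the 41091 probe sets that were paired with exactly 1 gene. RNA came from KYSE170-luc, a human esophageal squamous carcinoma line that carries luciferase, per the series title, and it was collected after 12 hours of transfection. In 1 sample the cells had received an empty vector and in the other a plasmid for the transcription factor SOX17, and both groups share the luciferase-bearing line. Each group had 1 array and no replicate, so every difference below is between these 2 arrays and no p-value is given.

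Desmosomal cadherins, the desmogleins and desmocollins, span the membrane and bind their partners on the next cell. Their tails bind armadillo proteins, plakoglobin (JUP) and the plakophilins (PKP1, PKP2 and PKP3), and these bind desmoplakin (DSP), the plakin that holds the keratin filaments. In stratified epithelium such as that of the esophagus this chain resists mechanical stress, and PERP, a tetraspan membrane protein, is needed for its assembly.

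Where a gene had several probe sets, the one of highest mean log2 intensity stood for it. The gene counted as measured when that probe set reached an intensity of 95 on each array, a floor set at the 60th percentile of the pooled values. All 10 desmosome genes were measured, as were 10034 genes in all, and 20 of the 24 desmosome probe sets were. Differences are given as log2 ratios, SOX17 over empty vector, and a negative value means a lower intensity with SOX17. The error of 1 log2 ratio was taken from the disagreement between measured probe sets of the same gene over 4574 genes. Its SD was 0.38 for genes whose measured probe sets averaged in the lowest tertile of intensity, 0.30 in the middle tertile and 0.21 in the highest. Each probe set was given the SD of the tertile of its own intensity. This can understate the error of a bright probe set whose gene also has dim ones. This error covers disagreement within these arrays only, not that between cultures. Intensities of different probe sets depend on their probes, so levels are compared between arrays and never between genes.

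The SOX17 probe sets themselves read 4.5 and 19.1 on the empty vector array and 83.8 and 6.5 on the SOX17 array, all under the floor, so they leave the labels unchecked. Of the list of squamous epithelium markers, 6 of 6 named genes were measured. They were the basal keratins KRT5 and KRT14, SOX2 and SFN, and the general epithelial genes EPCAM and CDH1, which do not mark squamous cells in particular, while KRT6A, KRT17 and TP63 were not analysed here. Of the markers of other cells, 1 of 6 fibroblast genes (COL1A1), 0 of 4 leukocyte genes, 0 of 4 endothelial genes and 0 of 3 cardiac muscle genes were measured. In such bulk RNA, fewer cells with a transcript and less of it per cell cannot be told apart. The 24 poly-A control probe sets, which report transcripts added before labelling, had a median log2 ratio of 0.57, against 0.03 for all measured genes. Their part in the results below was not tested.

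Most desmosome genes read slightly lower on the SOX17 array, and none differed by 1.5-fold. Of the 10 genes 7 had a log2 ratio below 0, beside 45.4% of all measured genes, and 3 had one above 0, beside 54.6%. The median over the 10 genes was -0.14, and that over all 10034 measured genes was 0.03. The ratios ran from -0.47 for PKP1 to 0.20 for JUP. Among the genes below 0, DSC2 stood at -2.06 and PKP1 at -1.59 times the SD of a ratio. The others below 0 lay between -1.04 and -0.35 times their SD, so their direction is close to the error. No desmosome gene was at least 1.5-fold lower, beside 3.19% of measured genes, or at least 1.5-fold higher, beside 3.78%. PKP1 and DSC2 were at least 20% lower (2 of 10, beside 13.0% of measured genes), and 0 of 10 were at least 25% higher, the same fold in the other direction (beside 15.0%). Counted by probe set, 15 of the 20 measured had a ratio below 0, beside 48.9% of all measured probe sets. These 20 share 10 genes, so they are not independent of each other.

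**Figure D1:**
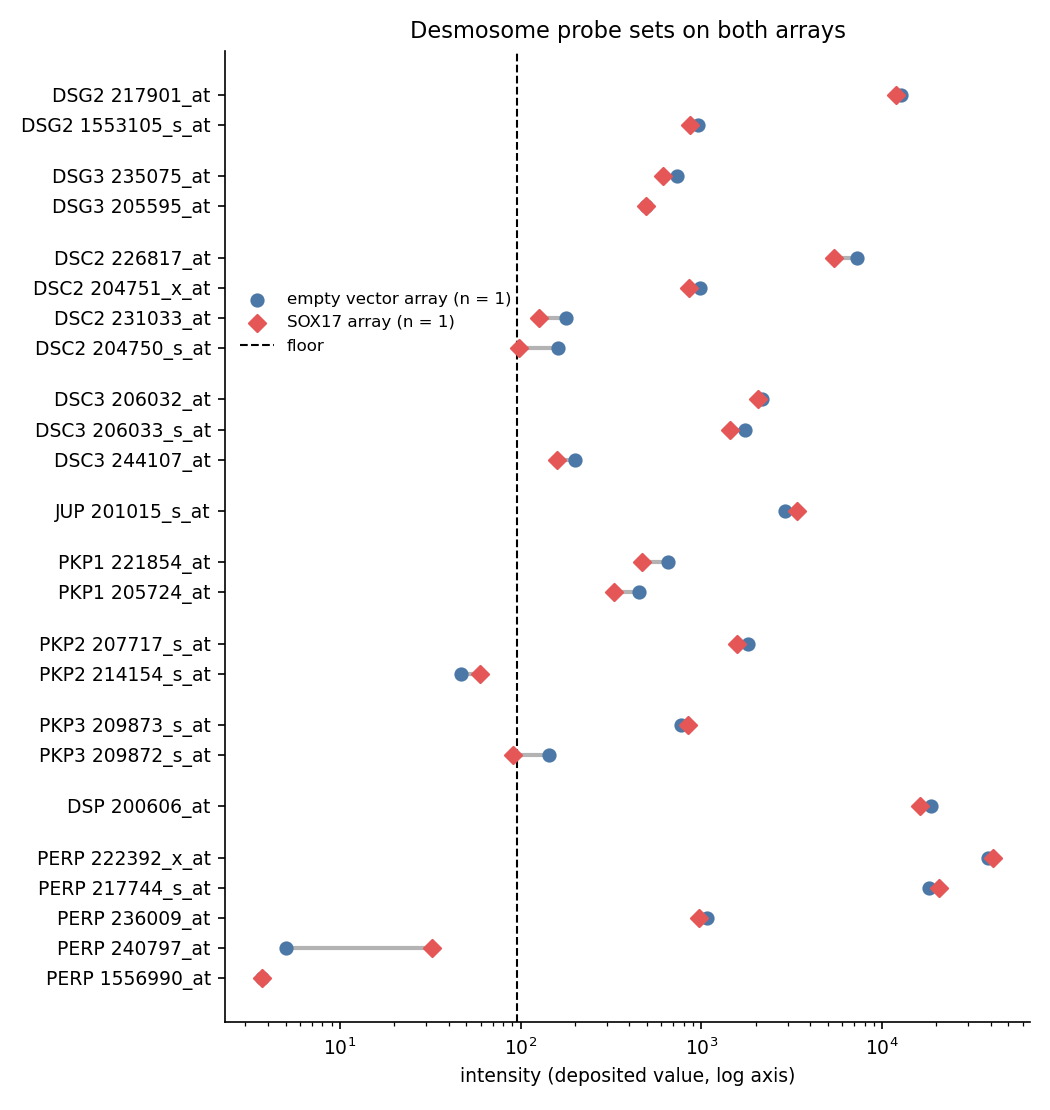
Intensity of each of the 24 desmosome probe sets on the empty vector array (circles) and the SOX17 array (diamonds), on a log axis, with 1 array per group and the floor of 95 as a dashed line. The diamonds of all 4 DSC2 probe sets, all 3 of DSC3 and both of PKP1 and DSG2 lie left of their circles, while those of JUP and of the brightest probe sets of PKP3 and PERP lie to the right.

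All 4 desmosomal cadherin genes lay below 0, beside 45.4% of all measured genes. Their median log2 ratio was -0.17, in a range of -0.42 to -0.07, and only DSC2 lay more than 1 SD of a ratio from 0. DSC2, the most widely expressed desmocollin, had the lowest ratio of the group. Its brightest probe set read 7239.4 with empty vector and 5399.9 with SOX17, which is 25.4% lower (log2 ratio -0.42, 2.06 times its SD of 0.21). The second read 988.2 and 854.7 (log2 ratio -0.21), the third 177.8 and 126.1 (-0.50), and the fourth 160.9 and 98.5 (-0.71). All 4 DSC2 probe sets were thus lower on the SOX17 array, with a mean log2 ratio of -0.46 and an SD among them of 0.21. The last of these was 1.63-fold lower. It was the 1 of the 20 measured desmosome probe sets at least 1.5-fold lower, beside 4.61% of all measured probe sets, but its SOX17 reading stood just above the floor of 95. Of the 635 genes with 4 or more measured probe sets, 17.0% had all of them below 0. Averaged over its 4 probe sets DSC2 lay in the middle tertile of intensity, where the SD is 0.30. That is larger than the 0.21 used for its brightest probe set.

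DSC3, the desmocollin of the basal layers of stratified epithelium, was lower on each of its probe sets by a smaller amount. They read 2175 and 2068.1, 1749.9 and 1448.2, and 199 and 159.1 on the empty vector and SOX17 arrays. The log2 ratios were -0.07, -0.27 and -0.32, each within 1.5 times its SD. Of the 1820 genes with 3 or more measured probe sets 19.8% had all of them below 0. Among the desmosome genes these were DSC2 and DSC3, 2 of 3, and PERP was not. By their brightest probe sets the ratio of DSC3 stood 0.35 above that of DSC2, with an SD of that difference of 0.29, so the difference between the desmocollins is close to the error.

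The desmogleins lay nearer to 0 than DSC2. DSG2, the desmoglein found in all tissues with desmosomes, read 12648.9 with empty vector and 11945.6 with SOX17 (log2 ratio -0.08). Its other probe set read 961.8 and 869.6 (log2 ratio -0.15). Both readings were lower on the SOX17 array by less than 1 SD of a ratio. DSG3, the desmoglein of the lower layers of stratified epithelium and the autoantigen of pemphigus vulgaris, read 734.9 and 614.2 on its brightest probe set (log2 ratio -0.26). The other DSG3 probe set read 495 and 496.9, a log2 ratio of 0.01. The DSG3 probe sets therefore did not share a direction, and neither ratio exceeded its SD of 0.30.

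These cadherin genes lie side by side in the genome. In RefSeq's annotation of human chromosome 18 the 7 desmosomal cadherin genes follow each other in the order DSC3, DSC2, DSC1, DSG1, DSG4, DSG3 and DSG2, with no other protein-coding gene between them. The 4 measured ones stand at the ends of this cluster, and the 3 in its middle, DSC1, DSG1 and DSG4, lay below the floor on both arrays. The sequences just before the start of the 4 cadherin genes, and before that of PKP1, are shown to set the neighbouring cadherin genes side by side with the gene of lowest ratio. They are the 250 bases before the RefSeq start in build GRCh38.p14, 5′ to 3′ on the gene's strand. Capitals mark ACAAT and ACAAAG, words that SOX factors can bind, and CACCTG, an E-box, with matches on both strands.
DSC2 (chr18:31102422-31102671, minus strand): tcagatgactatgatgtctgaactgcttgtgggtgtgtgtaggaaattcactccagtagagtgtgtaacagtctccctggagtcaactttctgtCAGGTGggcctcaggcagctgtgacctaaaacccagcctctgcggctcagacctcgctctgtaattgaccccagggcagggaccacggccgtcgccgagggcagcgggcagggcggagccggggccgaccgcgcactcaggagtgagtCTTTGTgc
DSC3 (chr18:31042743-31042992, minus strand): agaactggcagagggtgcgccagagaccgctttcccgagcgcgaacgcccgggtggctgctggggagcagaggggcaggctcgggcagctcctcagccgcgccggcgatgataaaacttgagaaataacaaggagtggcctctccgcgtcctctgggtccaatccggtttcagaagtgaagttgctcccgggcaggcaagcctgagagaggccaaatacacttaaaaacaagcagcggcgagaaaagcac
DSG2 (chr18:31497927-31498176, plus strand): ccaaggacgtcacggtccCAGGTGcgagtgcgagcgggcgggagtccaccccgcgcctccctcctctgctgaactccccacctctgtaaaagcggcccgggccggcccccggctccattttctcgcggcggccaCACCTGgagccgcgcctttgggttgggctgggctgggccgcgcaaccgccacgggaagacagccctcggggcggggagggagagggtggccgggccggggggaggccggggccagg
DSG3 (chr18:31447491-31447740, plus strand): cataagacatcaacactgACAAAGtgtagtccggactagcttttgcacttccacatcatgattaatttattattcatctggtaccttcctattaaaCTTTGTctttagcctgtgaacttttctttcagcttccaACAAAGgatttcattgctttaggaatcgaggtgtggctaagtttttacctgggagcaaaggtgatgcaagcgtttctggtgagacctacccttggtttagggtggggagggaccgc
PKP1 (chr1:201283256-201283505, plus strand): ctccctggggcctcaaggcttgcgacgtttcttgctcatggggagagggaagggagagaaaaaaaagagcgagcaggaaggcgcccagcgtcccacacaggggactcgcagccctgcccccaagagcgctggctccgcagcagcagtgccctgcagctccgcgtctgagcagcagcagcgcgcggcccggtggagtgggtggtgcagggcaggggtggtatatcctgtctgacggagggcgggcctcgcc
The word ACAAAG stood once before DSC2, 8 to 3 bases from its start and on the other strand, and 3 times before DSG3. ACAAT stood before none of the 8 desmosome genes with a promoter in the table, beside 25.7% of 24884 promoters. ACAAAG stood before 2 of the 8, beside 13.9%, and either SOX word before 2 of the 8, beside 34.8%. CACCTG stood before DSC2, DSG2 and DSP (3 of 8, beside 17.4% of promoters). The letters G and C made up 59.6% of the bases before DSC2, 75.2% before DSG2, 78% before DSP and 42.8% before DSG3. Their median over all promoters was 57.6%, and the shares given here were not matched for it. DSC3 and PKP1 held none of the searched words in this window. PKP2 and PKP3 were not among the promoters. A match is a description of the letters and not a binding site.

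The armadillo proteins were split, with 2 of 4 below 0 and the widest range of any class, 0.67. PKP1, the plakophilin of the suprabasal layers of stratified epithelium, read 653.9 with empty vector and 471.7 with SOX17, 27.9% lower (log2 ratio -0.47). Its other probe set read 448.9 and 329.9, 26.5% lower (-0.44). The PKP1 probe sets differed from each other by far less than the error of a ratio, and each stood about 1.5 times its SD of 0.30 below 0. Of the 4574 genes with several measured probe sets, 3.17% were at least 20% lower on every one, and PKP1 was the 1 desmosome gene of 6 that did so. PKP2, the plakophilin of simple epithelia and heart muscle, read 1820.8 and 1570.1 (log2 ratio -0.21). Its other probe set lay under the floor on both arrays, at 46.6 and 59.5.

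Plakoglobin and PKP3 lay on the other side of 0. JUP, which also takes part in adherens junctions and is a close relative of beta-catenin, read 2920.5 with empty vector and 3363.5 with SOX17, 15.2% higher (log2 ratio 0.20, on its 1 probe set). PKP3, the plakophilin present in most epithelial desmosomes, read 770.6 and 840 (log2 ratio 0.12). The other PKP3 probe set lay the opposite way, at 143.2 with empty vector and at 91.2, under the floor, with SOX17. The direction of PKP3 thus rests on 1 probe set. The ratio of JUP stood 0.67 above that of PKP1 (SD of the difference 0.36) and 0.63 above that of DSC2 (SD 0.29). Both pairs join the highest ratio to the lowest ones and were picked for their size. The ratio of PKP3 stood 0.60 above that of PKP1 with an SD of 0.42, and that of PKP2 0.26 above it with an SD of 0.36. Among the plakophilins alone, no difference from PKP1 reached 1.5 SDs.

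DSP, which links the armadillo proteins to keratin, read 18745.6 with empty vector and 16234.9 with SOX17. It was 13.4% lower (log2 ratio -0.21, equal to 1.01 times its SD). DSP had 1 probe set, so its ratio could not be set against another.

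PERP lay close to 0. The readings were 38464.9 and 41187.8 on its brightest probe set (log2 ratio 0.10), 18191.5 and 20545.3 on the second (0.18), and 1079.8 and 970 on the third (-0.15). The PERP probe sets did not share a direction, and each ratio was within 1 SD. With _x_at and _s_at probe sets left out, the third stood for PERP and its ratio turned to -0.15. Its remaining 2 probe sets lay under the floor on both arrays (5 and 32.3, and 3.7 and 3.7), and no fold is given for them.

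**Figure D2:**
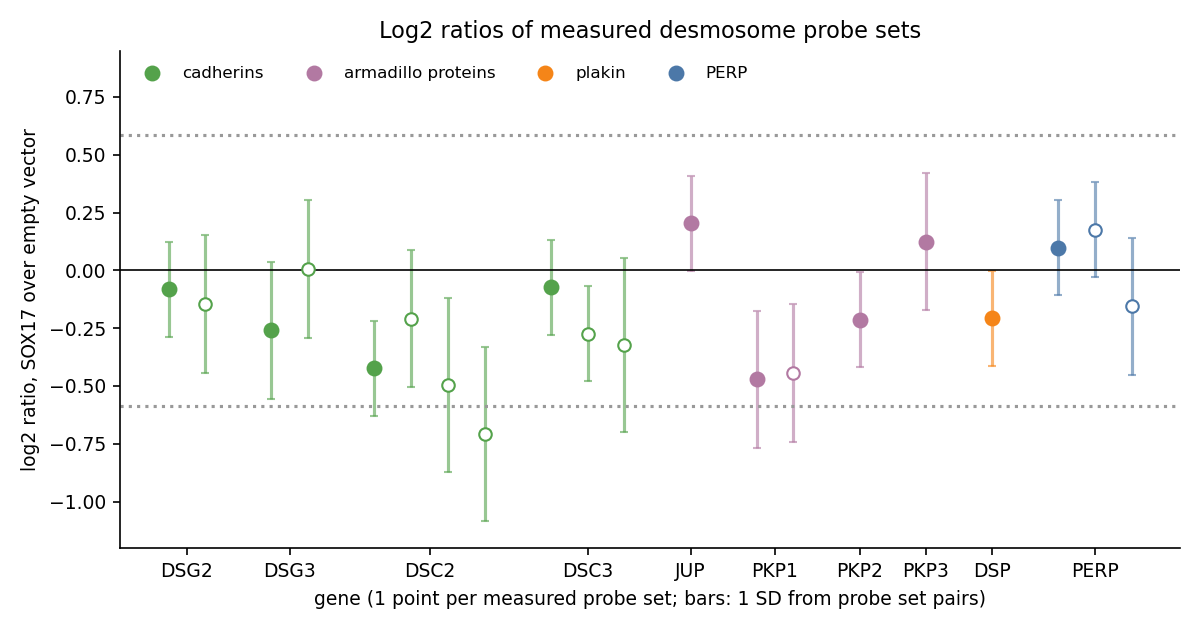
Log2 ratio, SOX17 over empty vector, for each of the 20 measured desmosome probe sets, by gene, with filled points for the brightest probe set of a gene and bars of 1 SD of a ratio in that tertile of intensity. The dotted lines stand at 1.5-fold in either direction. All 4 points of DSC2, both of PKP1 and the last 2 of DSC3 lie between -0.71 and -0.21, while JUP (0.20) and most points of PERP lie above 0.

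The order of the 10 ratios was PKP1 (-0.47), DSC2 (-0.42), DSG3 (-0.26), PKP2 (-0.21), DSP (-0.21), DSG2 (-0.08), DSC3 (-0.07), PERP (0.10), PKP3 (0.12) and JUP (0.20). Each neighbour in this order differed from the next by less than the error of a ratio. The ends of the order differed by about 2 SDs, with 2.16 for JUP against DSC2 and 1.87 for JUP against PKP1. Both pairs were picked from the ends of the same ranked ratios, which makes their differences large by choice. No difference between these genes is read from them. Among the 6 desmosome genes with several measured probe sets, 4 (DSC2, DSC3, DSG2 and PKP1) were below 0 on every one, beside 25.5% of such genes in all. None of the 6 was above 0 on every one, beside 23.1%. By their brightest probe sets 7 of the 10 genes lay in the highest tertile of intensity, where the error is smallest. Of these 7 genes 5 were below 0, beside 46.8% of genes in that tertile.

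**Figure D3:**
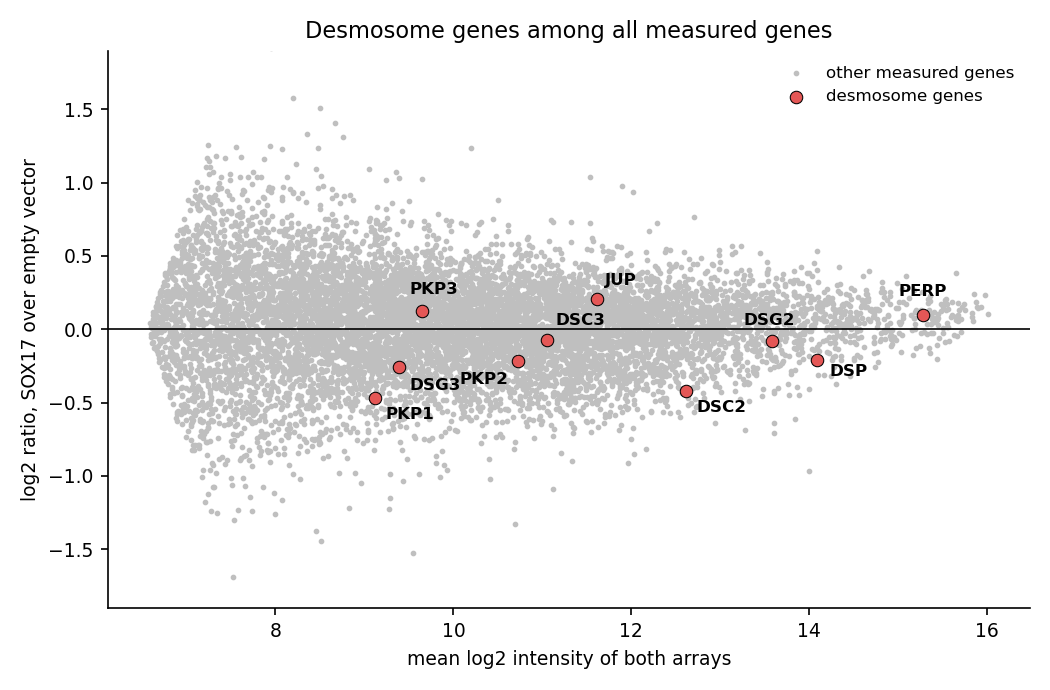
Log2 ratio, SOX17 over empty vector, against the mean log2 intensity of both arrays, with 1 point for each of the 10034 measured genes and the desmosome genes in red. A total of 2 genes lie outside the plotted range of -1.9 to 1.9. The desmosome genes stay inside the cloud of all genes, DSC2 (-0.42) and PKP1 (-0.47) near its lower side and JUP (0.20) above its centre.

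Other genes associated with desmosomes did not lie to one side. Of the 10 on that list 5 were measured, 2 below 0 and 3 above (median 0.00). By their brightest probe sets none of the 5 was at least 20% lower or 25% higher. PKP4, a plakophilin relative also found at adherens junctions, read 2864 and 2333 (log2 ratio -0.30, with 3 measured probe sets of which 1 was below 0). KAZN, which encodes the periplakin-binding protein kazrin, read 669.5 and 572.8 (-0.23). It was below 0 on both of its measured probe sets, with -0.53 on the other. PPL, the cornified envelope plakin periplakin, was higher, at 1529.5 and 1858.6 (0.28). PNN, pinin, had a log2 ratio of 0.20 on its brightest probe set but was below 0 on the other 4 of 5. MYZAP, a cardiac junction protein, was nearly level at 480.1 and 480.8. EVPL, envoplakin, read 223.6 on the empty vector array and 75.8, under the floor, on the SOX17 array. CDSN, the corneodesmosin of the outermost skin layer, lay under the floor on both arrays (10.9 and 23.9). The terminal differentiation cadherins DSC1 (0.8 and 25.3) and DSG1 (12.8 and 8.1) and the hair follicle cadherin DSG4 (4 and 6.6) did too.

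Adherens junction genes, which encode the neighbouring actin-linked junction, were split evenly. Of 9 with a named probe set 8 were measured, 4 below 0 and 4 above, with a median of -0.01. The largest ratio was that of the adhesion receptor NECTIN1, which read 173 and 334.9 (log2 ratio 0.95). NECTIN1 was the 1 gene of these 8 past 1.5-fold, beside 3.78% of all measured genes at least 1.5-fold higher. Only 1 of its 4 probe sets was measured, and it lay in the lowest tertile of intensity, where the SD is 0.38. The cadherins CDH1 (-0.06) and CDH3 (-0.07) lay close to DSG2 and DSC3. Of the armadillo relatives, beta-catenin (CTNNB1) had a log2 ratio of 0.18 and was above 0 on all of its 3 measured probe sets, near the 0.20 of plakoglobin. AFDN, afadin, lay at -0.24.

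Hemidesmosome genes, whose products fix the cell to the basement membrane, held 2 of the lower values. Of 6 with a named probe set 5 were measured, 3 below 0 and 2 above, with a median of -0.08. The laminin chain LAMB3 read 4818.1 and 3325.9 (log2 ratio -0.53), and the integrin chain ITGA6 read 7479 and 5392.9 (-0.47, and below 0 on both measured probe sets). Both were at least 20% lower, as DSC2 and PKP1 were, and neither was past 1.5-fold. ITGA6's partner ITGB4 lay at 0.12. The plakin DST lay at -0.08 on its brightest probe set, but its 6 measured probe sets ran from -0.08 to 0.89, with 3 of 6 below 0.

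Keratins, the filaments that desmosomes anchor, had a median of 0.03, with 3 of 7 measured genes below 0. KRT16, a keratin of activated epithelium, read 205.5 and 303.8 (log2 ratio 0.56), and the basal keratin KRT14 read 1509.7 and 1814.3 (0.27). The differentiation keratin KRT13 of the esophagus lay at -0.22 and the basal keratin KRT5 at 0.14. KRT16, KRT13 and KRT5 lay in the lowest tertile of intensity, where the SD of a ratio is 0.38. The ratios of KRT13 and KRT5 were within 1 SD of 0. With 1 array per group, differences between the desmosome genes and these lists could not be tested.

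**Figure D4:**
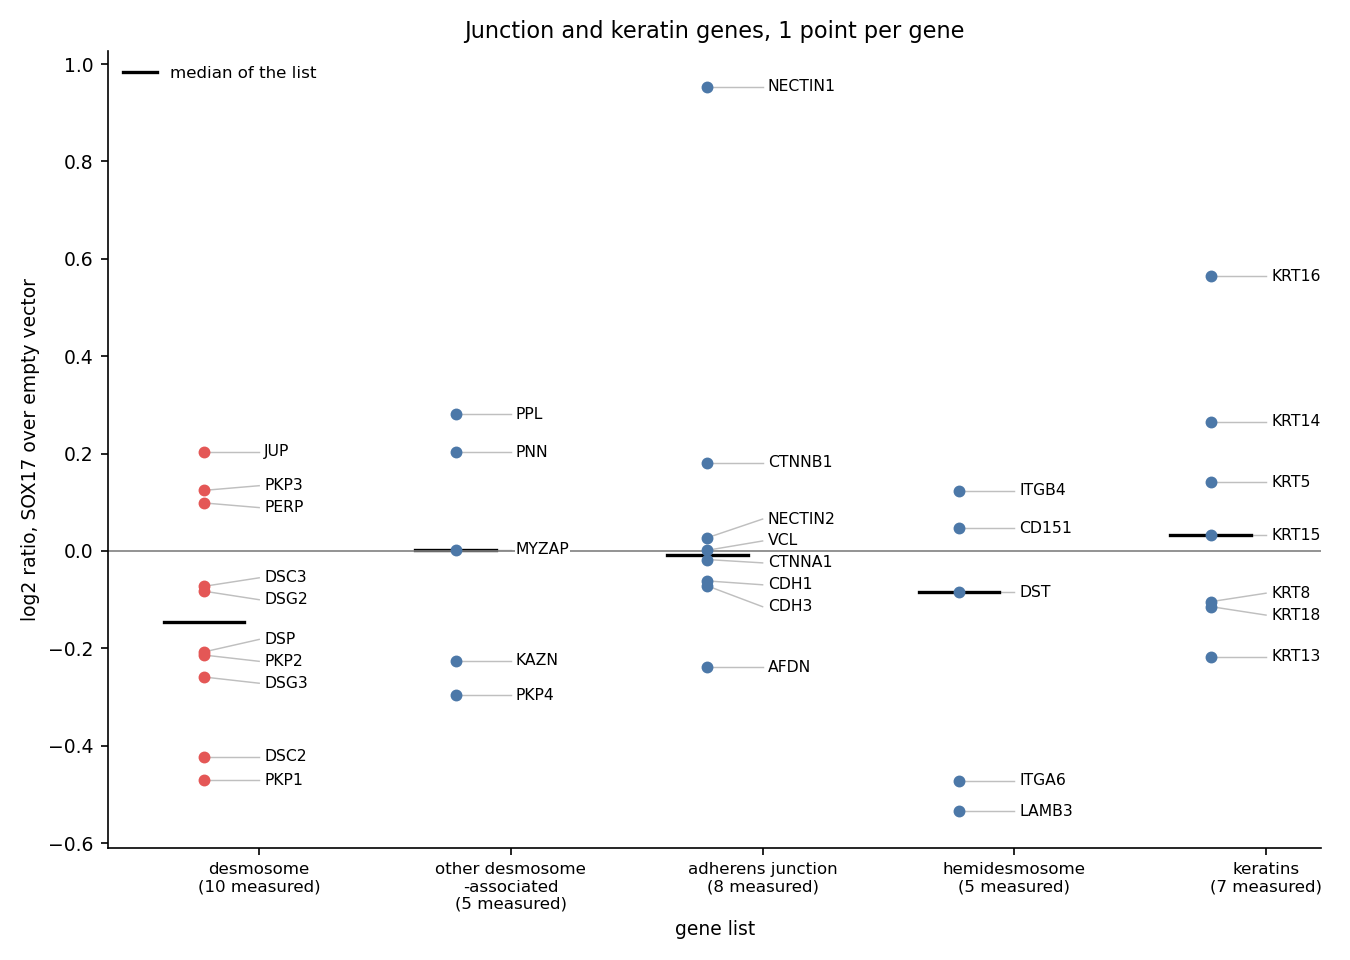
Log2 ratio, SOX17 over empty vector, for each measured gene of the desmosome list (red) and of 4 related lists (blue), with 1 point per gene and a black line at the median of each list. The desmosome median lies at -0.14, and those of the other lists between -0.08 and 0.03.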

How the data were processed

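Total RNA from 2 samples was labelled with biotin and hybridised to Affymetrix arrays, per the labels' protocols. The values the authors deposited are linear intensities, 1 for each probe set of each array. GCOS made them, per the submitters' processing notes, and its algorithm and version are not given in the sources used here. With 2% trimmed from each end both arrays had a mean of 500.1, which shows that they had been scaled alike. Values were used as deposited. Precision is limited by the number of arrays.

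Genes were named from GEO's annotation of the platform, and control probe sets were left out. The highest probe set by mean log2 intensity stood for a gene. The named genes were the 10 members with every probe set, all other desmosome-associated genes on a fixed list, and members of 3 further lists, up to 4 of each by size of ratio, with CDH1 added after its value was seen, and the cell type markers. Another list is not reported here. The members and lists were chosen with earlier results of these data known. Promoters came from RefSeq (GRCh38.p14) and 8 of 10 members matched by symbol. The error of a ratio is the square root of the mean variance between measured probe sets of a gene, by tertile of the mean log2 intensity of those probe sets. Alternatives were median centring, quantile normalization, loess (span 0.4), other floors, other rules for the probe set and other folds. The work used Python 3.11.15, numpy 2.4.6, pandas 2.3.3 and statsmodels 0.14.6, and was tested on simulated data. The simulation gave all probe sets the same noise SD and averaged the probe sets of a gene. It therefore did not check the choice of the brightest probe set or the SD by tertile.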

Additional observations from a re-analysis of the deposited data

How the results depend on the processing

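The median log2 ratio of the desmosome genes stayed below 0 under all 8 alternatives run, from -0.21 to -0.14. In each alternative that kept all 10 genes 7 lay below 0, beside 43.4% to 47.0% of all measured genes. Other floors could not move a member's ratio, because the brightest probe set stood for a gene at any floor. With the _x_at and _s_at probe sets left out, which can bind several transcripts, JUP, PKP2 and PKP3 had none left. All 7 remaining genes then lay below 0, beside 48.6% of the 7396 genes measured in this way. JUP and PKP3, which dropped out, had been above 0, and PERP turned from 0.10 to -0.15, within 1 SD of 0. No other member changed sign in the 77 recomputed ratios, of which those under other floors only repeat the main values. With a threshold of 20% lower in place of 1.5-fold, 2 genes were lower in place of 0. Scaling moved the median of all genes by less than 0.1. No paired analysis was possible because each group has 1 array, and for the same reason no array could be left out. Probe sets near the floor limit what can be said of PKP3 and the dimmest DSC2 probe sets.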
